A study of Mus musculus with 11 samples.

Results

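The genes described here are the T cell coreceptor genes Cd4, Cd8a and Cd8b1. These 3 genes were chosen by name from the 55536 Ensembl genes counted in each library, and they were read beside the tdT tracer, which is 1 further row of the count files. All 3 passed the low-count filter of edgeR, which kept 20307 genes. RNA of dorsal skin epidermal cells from male CD4Cre R26-tdT mice on the C57Bl6/N strain was sequenced in 11 bulk libraries. In this cross the CD4 promoter drives Cre recombinase, and Cre switches on the red protein tdT for good, so that tdT marks cells that made Cre at some time and their descendants. Every group carried both alleles, so the tdT- cells are unlabelled cells of the same genotype and not cells of a strain without Cre.

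Epidermal cells were released with thermolysin and sorted from a CD49f+CD34+ gate into 4 groups. These were 3 libraries of Sca-1+ tdT+ cells, 2 of Sca-1+ tdT- cells, 3 of Sca-1neg tdT+ cells and 3 of Sca-1neg tdT- cells. CD49f is the alpha-6 integrin of basal keratinocytes, mouse hair follicle bulge cells carry CD34, and Sca-1 is a surface protein of many epidermal keratinocytes that activated T cells carry too. Replicate 1 of each group came from mice 29 weeks old and the other replicates from mice 32 weeks old. Each library is a pool of 2 mice per the labels, so the p-values measure the spread between such pools.

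A T cell uses CD4 or CD8 to hold on to the MHC molecule that presents antigen to its receptor. CD4 binds MHC class II, CD8 binds MHC class I, and both bring the kinase Lck to the receptor complex. CD8 on most conventional T cells is a pair of one CD8 alpha chain, encoded by Cd8a, and one CD8 beta chain, encoded by Cd8b1, while CD8 alpha can also pair with itself on some intraepithelial T cells and dendritic cells. Developing thymocytes pass through a stage in which they make CD4 and CD8 together before keeping one of them. A Cre driven by the CD4 promoter is active at that stage, so its label is known to reach both CD4 and CD8 T cells of the alpha-beta lineage.

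Cd8a lies at chr6:71373427-71379173 on the plus strand of mm10 and Cd8b1 at chr6:71322788-71337494 on the same strand, 35.9 kb apart. Cd4 lies at chr6:124864692-124888221 on the minus strand. All 3 are annotated as protein coding in GENCODE M21, and no other annotated gene overlaps them. Their merged exons span 3.64 kb for Cd8a, 1.48 kb for Cd8b1 and 4.03 kb for Cd4. The 250 bases before the RefSeq start of Cd8a (GRCm38.p6, chr6:71373177-71373426, plus strand) are shown because Cd8a carried most coreceptor counts and moved together with Cd8b1. Promoter entries for Cd4 and Cd8b1 were not matched.

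Cd8a: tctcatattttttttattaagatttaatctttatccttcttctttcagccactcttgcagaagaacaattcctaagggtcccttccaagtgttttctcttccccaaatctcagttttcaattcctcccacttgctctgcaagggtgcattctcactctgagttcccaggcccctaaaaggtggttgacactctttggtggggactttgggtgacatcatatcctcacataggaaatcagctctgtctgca

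This window of Cd8a was searched on both strands for 4 short motifs of factors that act in T cells, and none of them matched, so no base is in capitals. The RUNX letters TGTGGT occur in 14.05% of 32851 RefSeq windows of the same length, and the E-box letters CAGCTG in 13.0%. The GATA letters AGATAA occur in 9.99% and the ETS letters ACAGGAAG in 2.90%. The lack of a match says only that these letters are not in this window.

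Total gene counts ran from 17409131 to 46542177 per library. The tracer row stood between 133 and 307 CPM (counts scaled to the library total) in 5 of the 6 libraries labelled tdT+ and between 2.54 and 4.89 CPM in the 5 labelled tdT-. The exception, the library labelled Sca-1neg tdT+ replicate 2, had 2.05 CPM of tracer, below all 5 tdT- libraries. Results that rest on it are therefore given with and without it. Sca-1neg tdT+ replicates 1 and 2 and Sca-1neg tdT- replicate 2 also held liver transcripts, with up to 17791 CPM summed over 8 liver genes, against at most 67.2 CPM in the other 8 libraries. The 7 keratinocyte markers summed to between 19183 and 35517 CPM. Among them Ly6a, which encodes Sca-1, was at 2.46 to 59.2 CPM in the Sca-1neg groups and 153 to 294 CPM in the Sca-1+ groups. Cd34 was at 22.3 to 35.7 CPM in Sca-1+ tdT+ cells and at 319.6 CPM or more in every other library, although all groups came from a CD34+ gate.

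Cd8a, the alpha chain, had the most counts of the 3 genes, and nearly all of them came from the Sca-1+ tdT+ cells. Its level there was 27.6, 85.9 and 73.5 CPM after TMM scaling in replicates 1 to 3, from 1037, 1513 and 1425 counts (62.4 ± 30.7 CPM, SD, n = 3). In Sca-1+ tdT- cells Cd8a was at 2.18 CPM in replicate 1, from 69 counts, and at 0 counts in replicate 2 (1.09 ± 1.54 CPM, SD, n = 2). All 3 Sca-1+ tdT+ libraries thus lay above both Sca-1+ tdT- libraries, with replicate 1 the lowest of the labelled libraries.

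In Sca-1neg tdT+ cells Cd8a was at 1.45, 0.696 and 4.46 CPM in replicates 1 to 3, from 32, 13 and 81 counts (2.20 ± 1.99 CPM, SD, n = 3). The middle value is the library with the tracer at the tdT- level. In Sca-1neg tdT- cells Cd8a was at 0.269, 0.291 and 0.268 CPM, from 13, 11 and 11 counts (0.276 ± 0.0129 CPM, SD, n = 3). The 2 groups did not overlap, and the 3 unlabelled libraries were close to each other.

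Cd8b1, the beta chain, was likewise highest in the Sca-1+ tdT+ cells. It was at 10.7, 35.5 and 30.7 CPM in Sca-1+ tdT+ replicates 1 to 3, from 401, 626 and 594 counts (25.6 ± 13.2 CPM, SD, n = 3). It was at 0.380 CPM in Sca-1+ tdT- replicate 1, from 12 counts, and at 0 counts in replicate 2 (0.190 ± 0.269 CPM, SD, n = 2). Here too every labelled library lay above every unlabelled one of the Sca-1+ fraction.

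In the Sca-1neg fraction Cd8b1 was low except in 1 library. It was at 0.227, 0.214 and 3.47 CPM in Sca-1neg tdT+ replicates 1 to 3, from 5, 4 and 63 counts (1.30 ± 1.88 CPM, SD, n = 3). It was at 0.124, 0.0529 and 0.195 CPM in Sca-1neg tdT- cells, from 6, 2 and 8 counts (0.124 ± 0.0711 CPM, SD, n = 3). The groups did not overlap, but replicates 1 and 2 of the tdT+ group sat just above the highest tdT- library, and replicate 3 carried most of the group mean.

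Cd4, whose promoter drives the Cre, was the scarcest of the 3 in the Sca-1+ tdT+ cells, also per kb of exon. Its level was 4.64, 4.09 and 0.877 CPM in replicates 1 to 3, from 174, 72 and 17 counts (3.20 ± 2.03 CPM, SD, n = 3). Sca-1+ tdT- cells had 0.949 and 0.126 CPM, from 30 and 3 counts (0.537 ± 0.582 CPM, SD, n = 2). The groups overlapped, because Sca-1+ tdT+ replicate 3 lay below Sca-1+ tdT- replicate 1.

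In Sca-1neg tdT+ cells Cd4 was at 1.13, 0.0536 and 1.21 CPM in replicates 1 to 3, from 25, 1 and 22 counts (0.800 ± 0.647 CPM, SD, n = 3). Sca-1neg tdT- cells had 0.227, 0.661 and 0.293 CPM, from 11, 25 and 12 counts (0.394 ± 0.234 CPM, SD, n = 3). The single Cd4 count of the library labelled Sca-1neg tdT+ replicate 2 was the lowest of all 11 libraries, and its exact 95% interval for counting error runs from 0.00140 to 0.309 CPM of the library total. The other tdT+ libraries of that fraction lay above all 3 tdT- libraries.

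**Figure D1:**
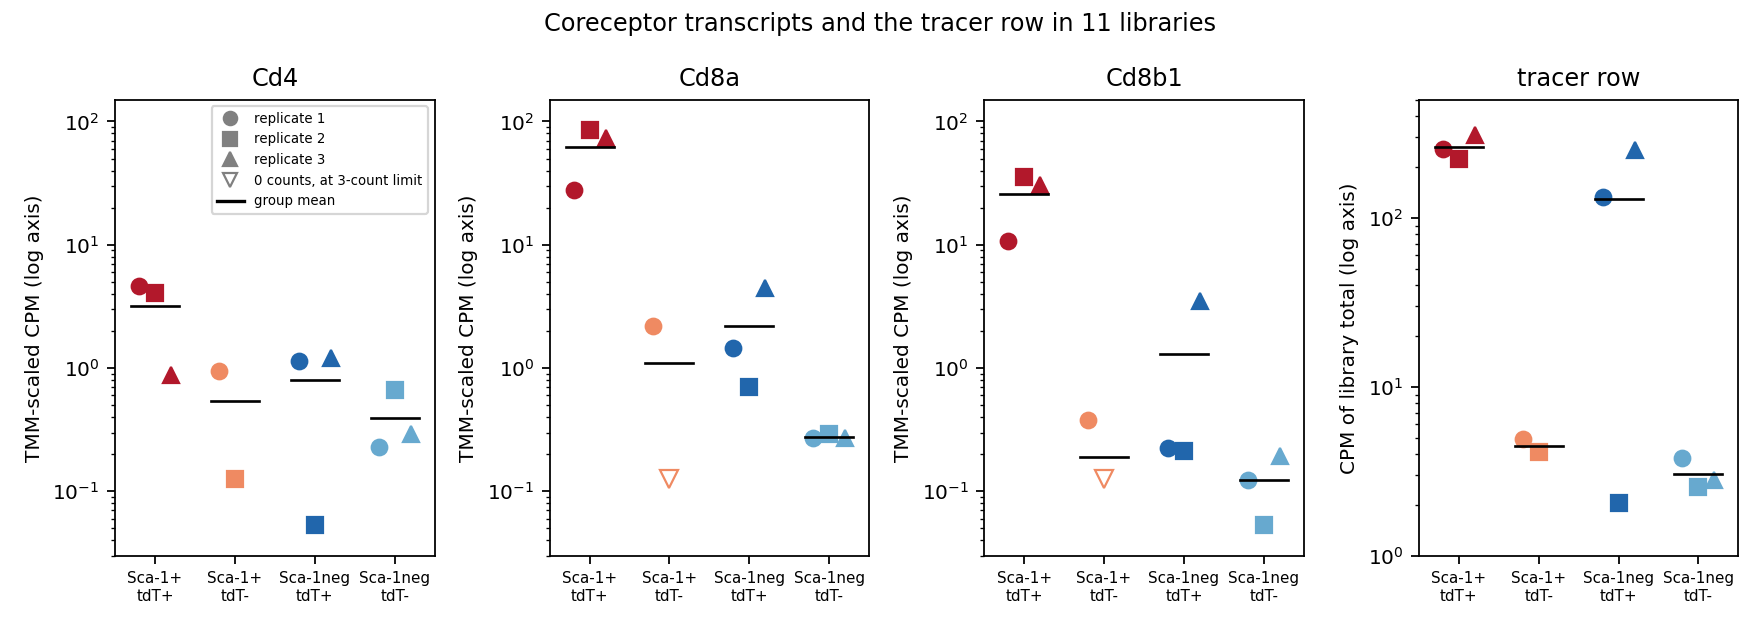
Level of Cd4, Cd8a, Cd8b1 and the tracer row in each of the 11 libraries, on log axes; symbols mark the replicate, black lines the group mean, and open triangles a count of 0 drawn at the 3-count limit of 0.127 CPM. Cd8a and Cd8b1 of the Sca-1+ tdT+ libraries stand above all other libraries, and Cd4 overlaps between groups. The tracer of the library labelled Sca-1neg tdT+ replicate 2 lies below that of all tdT- libraries.

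The order of the group means was the same for the 3 genes: Sca-1+ tdT+, then Sca-1neg tdT+, Sca-1+ tdT- and Sca-1neg tdT-. For Cd8a and Cd8b1 only the first of these groups stood clear of its neighbour, since the Sca-1neg tdT+ libraries overlapped the Sca-1+ tdT- libraries and these overlapped the Sca-1neg tdT- libraries. For Cd4 each group overlapped its neighbour in the order, and only the first and the last were apart. In bulk RNA, fewer cells of a type and less RNA per cell cannot be told apart, so these levels do not separate the share of CD8 or CD4 T cells from the transcript content of each cell.

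Whether labelled cells carry more coreceptor RNA than unlabelled cells was asked first in the Sca-1+ fraction. The fitted log2 fold change was 5.80 ± 1.58 (SE) for Cd8a, with an adjusted p of 0.124 in the quasi-likelihood test of edgeR. For Cd8b1 it was 6.98 ± 1.82, with an adjusted p of 0.101 in the same test. For Cd4 it was 2.55 ± 1.31, with an adjusted p of 0.422. None of the 3 genes passed the threshold of 0.05, although Cd8a and Cd8b1 had unadjusted p-values of 0.00606 and 0.00398 in edgeR. The Wald test of DESeq2, an alternative, called both of them, with adjusted p-values of 6.45e-04 and 1.19e-04 and nearly the same fold changes of 5.81 and 7.03. Across all tested genes 2.74% were called by edgeR in this comparison, 2935 of 20307 had an unadjusted p under 0.05, and DESeq2 called 1473 genes. Of the tested genes, 15.8% were higher without overlap between libraries, so the lack of overlap of Cd8a and Cd8b1 is by itself a common pattern.

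The fitted fold changes of Cd8a and Cd8b1 rest in part on a library with 0 counts and give no bound. Against the limit of 3 counts in Sca-1+ tdT- replicate 2, which is 0.127 CPM of the library total, Cd8a was at least 224-fold higher in the lowest Sca-1+ tdT+ library. Cd8b1 was at least 86.4-fold higher in the lowest such library. Against Sca-1+ tdT- replicate 1, the other library of the group, the same labelled library was 12.4-fold higher for Cd8a and 27.5-fold higher for Cd8b1. Intervals and limits of this kind cover counting error only.

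In the Sca-1neg fraction the log2 fold change of labelled over unlabelled cells was 2.97 ± 1.22 for Cd8a and 3.33 ± 1.33 for Cd8b1, with adjusted p-values of 0.594 and 0.573 in edgeR. It was 1.02 ± 1.09 for Cd4, with an adjusted p of 0.851. No member passed in edgeR or DESeq2, and unadjusted p-values under 0.05 were reached by 2 of the 3, Cd8a and Cd8b1. The background of edgeR calls was low here, with 0.0640% of all genes called, and 5.07% were higher without overlap. Of the 20307 genes, 1691 had an unadjusted p under 0.05 in edgeR, and DESeq2 called 432 genes. With the library labelled Sca-1neg tdT+ replicate 2 left out, the direction of all 3 genes was kept and none of them passed. Without Sca-1neg tdT+ replicate 3 the difference was 1.95 for Cd8a and 0.80 for Cd8b1, with adjusted p-values of 0.558 and 0.792 in edgeR, so most of the Cd8b1 difference rests on that library.

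A test of single values over both fractions, with tdT labels permuted within each fraction, used all 11 libraries. Cd8a was higher in tdT+ cells by 3.58 on the log2(CPM + 0.5) scale, with an exact two-sided permutation p of 0.005, which is the smallest that the 200 arrangements allow. Cd8b1 was higher by 3.08, with the same exact permutation p of 0.005. Both stayed at 0.0075 after Benjamini-Hochberg adjustment of the exact permutation p over the 3 genes. For each of them 6 of 6 tdT+ libraries lay above all tdT- libraries of their fraction. Of all tested genes, 15.8% were higher without overlap in Sca-1+ cells and 5.07% in Sca-1neg cells. The share with both patterns was not counted. The permutation test covered only these 3 genes, which were chosen with earlier results of these data known. Cd4 differed by 1.07, with an exact permutation p of 0.105, and 4 of 6 tdT+ libraries lay above.

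With the library labelled Sca-1neg tdT+ replicate 2 left out, the combined difference of Cd4 was 1.34, with an exact permutation p of 0.03. Cd8a then differed by 3.81 and Cd8b1 by 3.29, each with an exact permutation p of 0.01. The call on Cd4 over both fractions is thus made or lost with that 1 library.

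**Figure D2:**
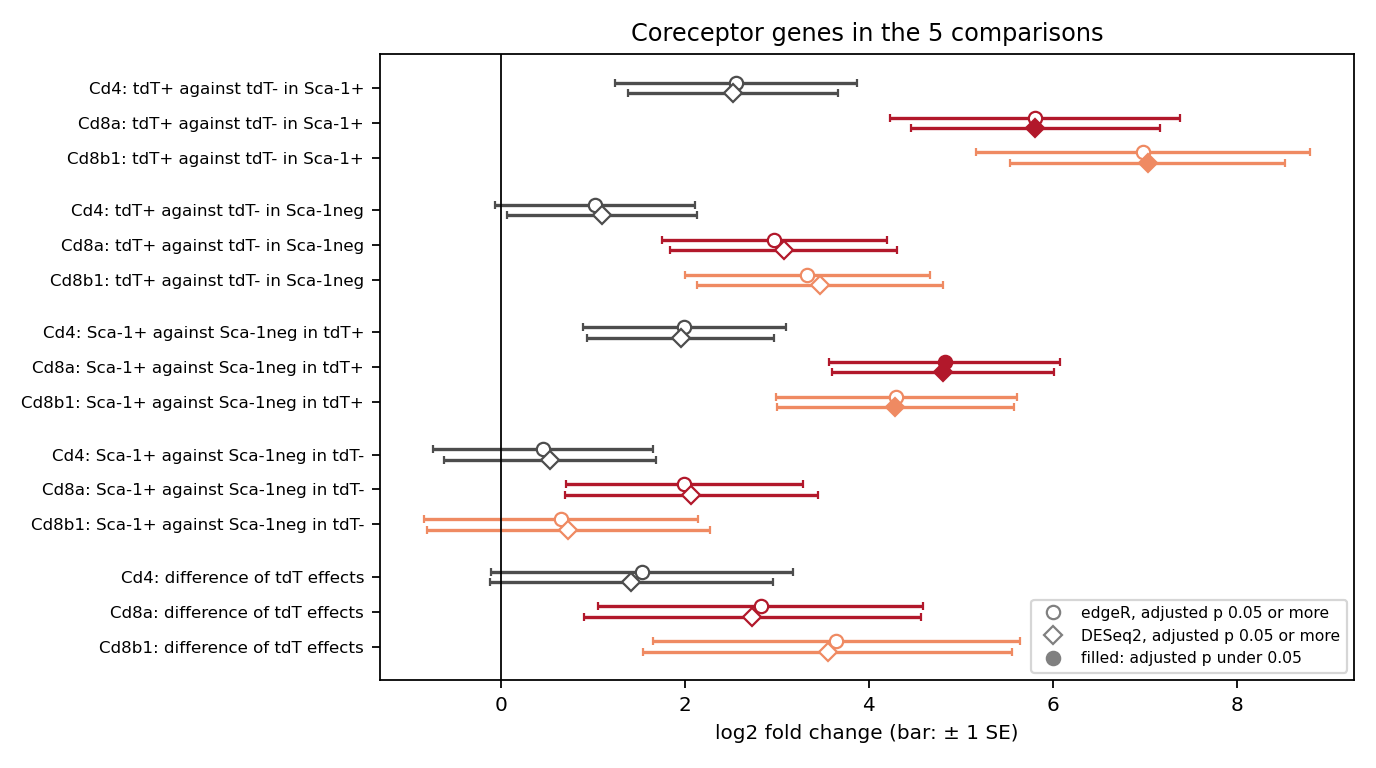
Log2 fold changes of Cd4, Cd8a and Cd8b1 with 1 SE in the 5 comparisons, from edgeR (circles) and DESeq2 (diamonds); filled symbols mark an adjusted p under 0.05. Both tools give nearly equal fold changes, edgeR calls 1 value (Cd8a between Sca-1 fractions of tdT+ cells) and DESeq2 calls 4.

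Between the Sca-1 fractions, the labelled cells differed most. Cd8a was higher in Sca-1+ than in Sca-1neg tdT+ cells by 4.82 ± 1.25 on the log2 scale (28.3-fold between the group means), with an adjusted p of 0.0419 in edgeR. It was the only coreceptor gene called by edgeR in any comparison. Cd8b1 differed by 4.30 ± 1.31, with an adjusted p of 0.0645, and Cd4 by 2.00 ± 1.10, with an adjusted p of 0.249. Of all genes, 12.7% were called in this comparison and 15.4% were higher without overlap, as Cd8a and Cd8b1 were. The call on Cd8a was lost in 11 of 17 alternatives, including the fits that left out any one of 7 of the 11 libraries (adjusted p up to 0.125), so it holds only narrowly. With the library labelled Sca-1neg tdT+ replicate 2 left out, the difference was 4.40, with an adjusted p of 0.101 in edgeR, and it was 3.78 once the 3 libraries holding liver transcripts were left out, with an adjusted p of 0.179.

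Among unlabelled cells the Sca-1 fractions did not differ detectably in coreceptor RNA. The log2 difference of Sca-1+ over Sca-1neg was 2.00 ± 1.29 for Cd8a, 0.65 ± 1.49 for Cd8b1 and 0.46 ± 1.19 for Cd4, with adjusted p-values of 0.430, 0.858 and 0.877 in edgeR. No member was called in edgeR or DESeq2 or reached an unadjusted p under 0.05. Of all genes, 5.74% were called in edgeR, and 4173 had an unadjusted p under 0.05. These values rest on Sca-1+ tdT- replicate 1, since without it all 3 fitted differences turned negative. The library then left in the group had 0 counts of Cd8a and Cd8b1 and 3 of Cd4, so the size of those differences has no meaning. The tdT effect of Sca-1+ cells minus that of Sca-1neg cells was 2.83 ± 1.77 for Cd8a, 3.65 ± 1.99 for Cd8b1 and 1.53 ± 1.64 for Cd4. No member was called there in edgeR or DESeq2 or at an unadjusted p under 0.05, so a larger tdT effect in Sca-1+ cells was not shown. Of all genes, 0.483% were called there in edgeR, and 2476 had an unadjusted p under 0.05.

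Cd8a was also set against Cd3e, a chain of the T cell receptor complex that all mature T cells carry. In Sca-1+ tdT+ cells there were 58.7, 73.1 and 77.0 Cd8a counts per 100 Cd3e counts in replicates 1 to 3. In Sca-1+ tdT- cells there were 22.3 and 0, although Cd3e was at 9.78 and 12.6 CPM. Both unlabelled Sca-1+ libraries thus held less Cd8a for their Cd3e than any labelled Sca-1+ library, and 1 of them held none.

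In Sca-1neg tdT+ cells there were 41.6, 8.84 and 69.8 Cd8a counts per 100 Cd3e counts in replicates 1 to 3. The lowest of these is the library with the tracer at the tdT- level, which had the most Cd3e of its group, at 7.87 CPM against 3.49 and 6.39 CPM. In Sca-1neg tdT- cells there were 40.6, 91.7 and 32.4, from only 11 to 13 Cd8a counts, so those ratios are imprecise, and the 2 Sca-1neg groups overlapped. Cd8a per 100 tracer counts was 11.1, 38.8 and 23.2 in Sca-1+ tdT+ cells, against 0.969 and 1.76 in Sca-1neg tdT+ replicates 1 and 3. The remaining library of that group, from just 37 tracer counts, gave 35.1, so the 2 groups overlap when it is included. Without it, labelled cells of the 2 fractions had tracer levels of the same order and Cd8a levels more than 6-fold apart.

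**Figure D3:**
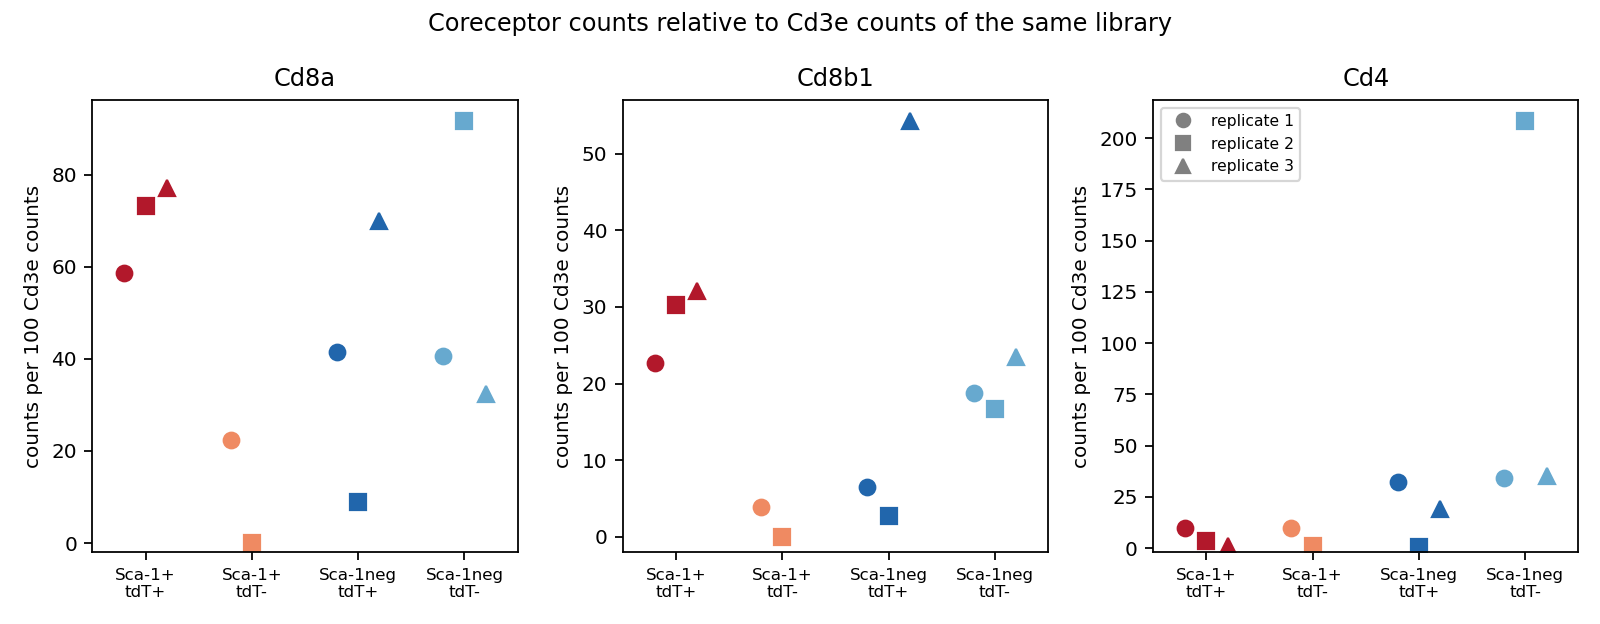
Counts of Cd8a, Cd8b1 and Cd4 per 100 Cd3e counts of the same library, with symbols for the replicate. The Sca-1+ tdT+ libraries hold from 58.7 to 77.0 Cd8a counts per 100 Cd3e counts and the Sca-1+ tdT- libraries 22.3 and 0, while the high Cd4 ratio of 208 in Sca-1neg tdT- replicate 2 comes from 25 Cd4 counts.

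The balance of the 2 CD8 chains was steady where counts were high. Cd8b1 made up 27.9%, 29.3% and 29.4% of the summed Cd8a and Cd8b1 counts in Sca-1+ tdT+ replicates 1 to 3. Per kb of exon, Cd8b1 and Cd8a were equal there within the spread of libraries, at a ratio of 0.948, 1.01 and 1.02. In Sca-1+ tdT- replicate 1 the share was 14.8%, with an exact 95% interval from 7.90% to 24.4% that lies below the intervals of the 3 labelled libraries, which start at 25.6%. In Sca-1neg tdT+ replicate 3 it was 43.8%, with an exact 95% interval from 35.5% to 52.3%, above those of the Sca-1+ tdT+ libraries. The other libraries had at most 37 summed counts, and their intervals were wide.

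The balance of Cd4 against Cd8a varied among the Sca-1+ tdT+ libraries. Cd4 made up 14.4% of the summed Cd4 and Cd8a counts in replicate 1, with an exact 95% interval from 12.4% to 16.5%. It made up 4.54% in replicate 2 (3.57% to 5.69%) and 1.18% in replicate 3 (0.688% to 1.88%). These intervals do not overlap, so the libraries differed beyond counting error. Replicate 1 had the most Cd4 and the least Cd8a and was the only one of the group from mice of 29 weeks. For that library, age and library cannot be told apart. Replicates 2 and 3 also differed in this share, although both came from mice of 32 weeks.

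Per kb of exon, the Sca-1+ tdT+ cells had 21.6-fold more Cd8a than Cd4 between the group means, and the ratio was 6.61, 23.3 and 92.9 in replicates 1 to 3. In the Sca-1neg tdT- cells the same ratio of group means was 0.777. In the Sca-1neg tdT+ cells it was 3.05, with 1.42, 14.4 and 4.08 in replicates 1 to 3, of which the second rests on 1 Cd4 count. In Sca-1+ tdT- cells Cd4 made up 30.3% of 99 Cd4 and Cd8a counts in replicate 1 and all 3 of 3 counts in replicate 2.

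The kinases and CD3 chains that act with the coreceptors were read in the same comparisons. In Sca-1+ cells, 5 of 12 genes of proximal signalling rose and 1 fell in tdT+ cells, with a list median of 2.79 against 0.04 over all genes (log2), where 0.394% of all genes were called higher and 2.34% lower. The CD3 chains Cd3d (3.70 ± 0.63, adjusted p = 0.0108 in edgeR) and Cd3e (2.95 ± 0.51, adjusted p = 0.0133) were among those that rose. Fyn, a kinase that keratinocytes also make, fell by 1.37 on the log2 scale (adjusted p = 0.0041 in edgeR), from a mean of 44.7 CPM in tdT- cells to 17.3 CPM in tdT+ cells. Lck, the kinase bound by CD4 and CD8 and named here for that role, averaged 44.0 CPM in Sca-1+ tdT+ cells and 6.39 CPM in Sca-1+ tdT- cells, without overlap, with a log2 difference of 2.78 ± 0.73 and an adjusted p of 0.0901 in edgeR.

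In Sca-1neg cells 2 of the same 12 genes rose, among them Cd3e (3.28 ± 0.46, adjusted p = 0.0404 in edgeR), with a list median of 2.50 against -0.03 over all genes (log2). With the library labelled Sca-1neg tdT+ replicate 2 left out, none of the 12 was called. The share of all genes called higher in this comparison was 0.0542%.

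The receptor constant genes include those of alpha-beta and of gamma-delta T cells. Trac, the alpha chain, rose by 4.11 ± 0.69 on the log2 scale (adjusted p = 0.0099 in edgeR), from 1.34 and 1.61 CPM in Sca-1+ tdT- cells to 15.5, 35.3 and 25.9 CPM in Sca-1+ tdT+ replicates 1 to 3. Trbc2, a beta chain, rose by 2.17 ± 0.45 (adjusted p = 0.0282). These 2 of 7 genes of the list were called by edgeR, where 0.394% of all genes were called higher and 2.34% lower. The list median was 2.17 (log2). All 7, among them the delta and gamma chain genes, were higher without overlap in Sca-1+ tdT+ than in Sca-1+ tdT- cells. So were 15.8% of all tested genes. Trdc, the delta chain of gamma-delta T cells, which as a lineage mostly lack CD4 and CD8 alpha-beta pairs, was at 53.9 to 92.9 CPM in Sca-1+ tdT+ cells and 18.1 to 19.9 CPM in Sca-1+ tdT- cells, with a log2 difference of 2.05 ± 0.75 and an adjusted p of 0.238 in edgeR.

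In Sca-1neg cells none of the 7 receptor genes was called by edgeR, 5 had an unadjusted p under 0.05 and DESeq2 called 5. Over all genes, 1691 of 20307 had an unadjusted p under 0.05 in this comparison, and DESeq2 called 432 genes. The 7 receptor genes had a median of 3.23 (log2). Trac, the gene with the lowest p, was at 1.45 to 3.25 CPM in Sca-1neg tdT+ cells and 0.0732 to 0.331 CPM in Sca-1neg tdT- cells, with a log2 difference of 3.62 ± 0.59 and an adjusted p of 0.0781 in edgeR. Its libraries did not overlap. Trbc2 went the other way in this fraction, also without overlap, at 3.31 to 6.34 CPM in tdT+ cells and 6.74 to 8.68 CPM in tdT- cells, with a log2 difference of -0.57 ± 0.37 and an adjusted p of 0.737 in edgeR.

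Transcription factors that set the choice between CD4 and CD8 were read next. In Sca-1+ cells 3 of 16 rose in tdT+ cells and none fell, with a list median of 0.48 (log2). In edgeR, 0.394% of all genes were called higher there and 2.34% lower. Runx3, which silences Cd4 and promotes Cd8 expression in CD8 T cells, rose by 1.68 ± 0.37 (adjusted p = 0.0371 in edgeR), from 8.58 and 10.2 CPM to between 25.8 and 37.3 CPM. Ikzf1, a lymphoid zinc finger factor, rose by 2.17 ± 0.45 (adjusted p = 0.0271), and Bcl11b, a T cell factor that keratinocytes make too, by 0.89 ± 0.16 (adjusted p = 0.0158). Zbtb7b, which encodes ThPOK and commits thymocytes to the CD4 lineage, differed by 0.59 ± 0.15, with an adjusted p of 0.0657 in edgeR. It was at 253 to 281 CPM in the labelled and 171 to 182 CPM in the unlabelled Sca-1+ cells, and at 147 to 191 CPM in the Sca-1neg groups, where Cd4 was low.

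In Sca-1neg cells 1 of the 16 factors rose, Ikzf1 (2.94 ± 0.40, adjusted p = 0.0345 in edgeR), with a list median of -0.11 (log2). In edgeR, 0.0542% of all genes were called higher there. Runx3 was at 5.67 to 6.67 CPM in tdT+ cells and 1.29 to 3.07 CPM in tdT- cells, without overlap, at an adjusted p of 0.144. With the library labelled Sca-1neg tdT+ replicate 2 left out, none of the 16 was called in that comparison.

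Genes that usually accompany CD8 were compared with genes of CD4 helper and regulatory cells. Of 11 tested CD8 and cytotoxic genes, 4 rose in Sca-1+ tdT+ cells and none fell, with a list median of 3.23 (log2). They were Ctsw, a protease of cytotoxic granules (3.23 ± 0.55, adjusted p = 0.0117 in edgeR), Nkg7, a granule membrane protein (3.27 ± 0.61, adjusted p = 0.0208), the chemokine Xcl1 (3.77 ± 0.75, adjusted p = 0.0244) and the factor Tbx21 (3.86 ± 0.89, adjusted p = 0.0456). Of 10 tested helper and regulatory genes none was called by edgeR, 4 had an unadjusted p under 0.05 and DESeq2 called 2, with a list median of 2.21 (log2). Of the 11 cytotoxic genes, 7 had an unadjusted p under 0.05 and DESeq2 called 7. Higher without overlap were 10 of the 11 cytotoxic and 8 of the 10 helper and regulatory genes, against 15.8% of all tested genes. Over all genes, edgeR called 0.394% higher and 2.34% lower in this comparison. Of 20307 genes, 2935 had an unadjusted p under 0.05, and DESeq2 called 1473 genes. The difference between the 2 lists was not tested.

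The helper and regulatory genes with the most counts were Ikzf2, Tnfrsf4, Ifng and Cd5. Ifng, the interferon gamma gene that CD8 cells also make, was at 3.30 to 13.97 CPM in Sca-1+ tdT+ cells and 0.0838 to 0.665 CPM in Sca-1+ tdT- cells, with an adjusted p of 0.120 in edgeR. Tnfrsf4 was at 28.8 to 47.4 CPM against 20.1 to 20.8 CPM, and Cd5 at 5.99 to 10.5 CPM against 2.39 to 3.64 CPM. Ikzf2 overlapped between the groups. Foxp3, the regulatory T cell factor, and Cd40lg, the CD40 ligand of helper cells, were named after their values were seen. Foxp3 was at 0.799 to 1.99 CPM and Cd40lg at 2.34 to 7.17 CPM in Sca-1+ tdT+ cells, against at most 0.222 and 0.285 CPM in Sca-1+ tdT- cells. Their adjusted p-values were 0.365 and 0.165 in edgeR.

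In Sca-1neg cells none of the 11 cytotoxic and none of the 10 helper and regulatory genes was called by edgeR. Of the cytotoxic genes 7 had an unadjusted p under 0.05 and DESeq2 called 7, and of the helper genes 2 and 2. Over all genes, 1691 of 20307 had an unadjusted p under 0.05, and DESeq2 called 432 genes. The list medians were 2.79 and 0.26 (log2).

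Genes known from T cells that stay in the skin were the last T cell list. Of 7 tested, 2 rose in Sca-1+ tdT+ cells: Cxcr6, a chemokine receptor (3.52 ± 0.44, adjusted p = 0.0019 in edgeR), and Itgae, the CD103 integrin that binds E-cadherin of keratinocytes (2.85 ± 0.50, adjusted p = 0.0148). In Sca-1neg cells 1 of the 7, Cxcr6, rose (2.70 ± 0.37, adjusted p = 0.0345), and it was not called once the library labelled Sca-1neg tdT+ replicate 2 was left out. The list medians were 2.75 and 2.70 (log2). In edgeR, 0.394% of all genes were called higher and 2.34% lower in Sca-1+ cells, and 0.0542% higher in Sca-1neg cells.

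The MHC molecules that the coreceptors bind were read too. Of 8 tested genes on the class II side, which CD4 binds, none was called by edgeR between labelled and unlabelled Sca-1+ cells, 1 had an unadjusted p under 0.05 and DESeq2 called none. Cd74, the invariant chain and the one with the most counts, was at 94.5 to 164 CPM in Sca-1+ tdT+ cells and 284 to 327 CPM in Sca-1+ tdT- cells, and the list median was -0.76 (log2). In Sca-1neg cells the median was 1.48 (log2), again with no call in edgeR, 4 unadjusted p-values under 0.05 and 3 calls by DESeq2. Of 8 tested genes on the class I side, which CD8 binds, none was called by edgeR in either fraction, with medians of 0.31 in Sca-1+ and 0.32 in Sca-1neg cells (log2). Unadjusted p-values under 0.05 numbered 0 and 2 there, and DESeq2 called 0 and 1. Over all 20307 genes, unadjusted p-values under 0.05 numbered 2935 in Sca-1+ and 1691 in Sca-1neg cells. DESeq2 called 1473 and 432 genes. B2m, the class I light chain, was at 1839 to 2359 CPM in Sca-1+ tdT+ cells and 1386 to 1739 CPM in Sca-1+ tdT- cells.

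**Figure D4:**
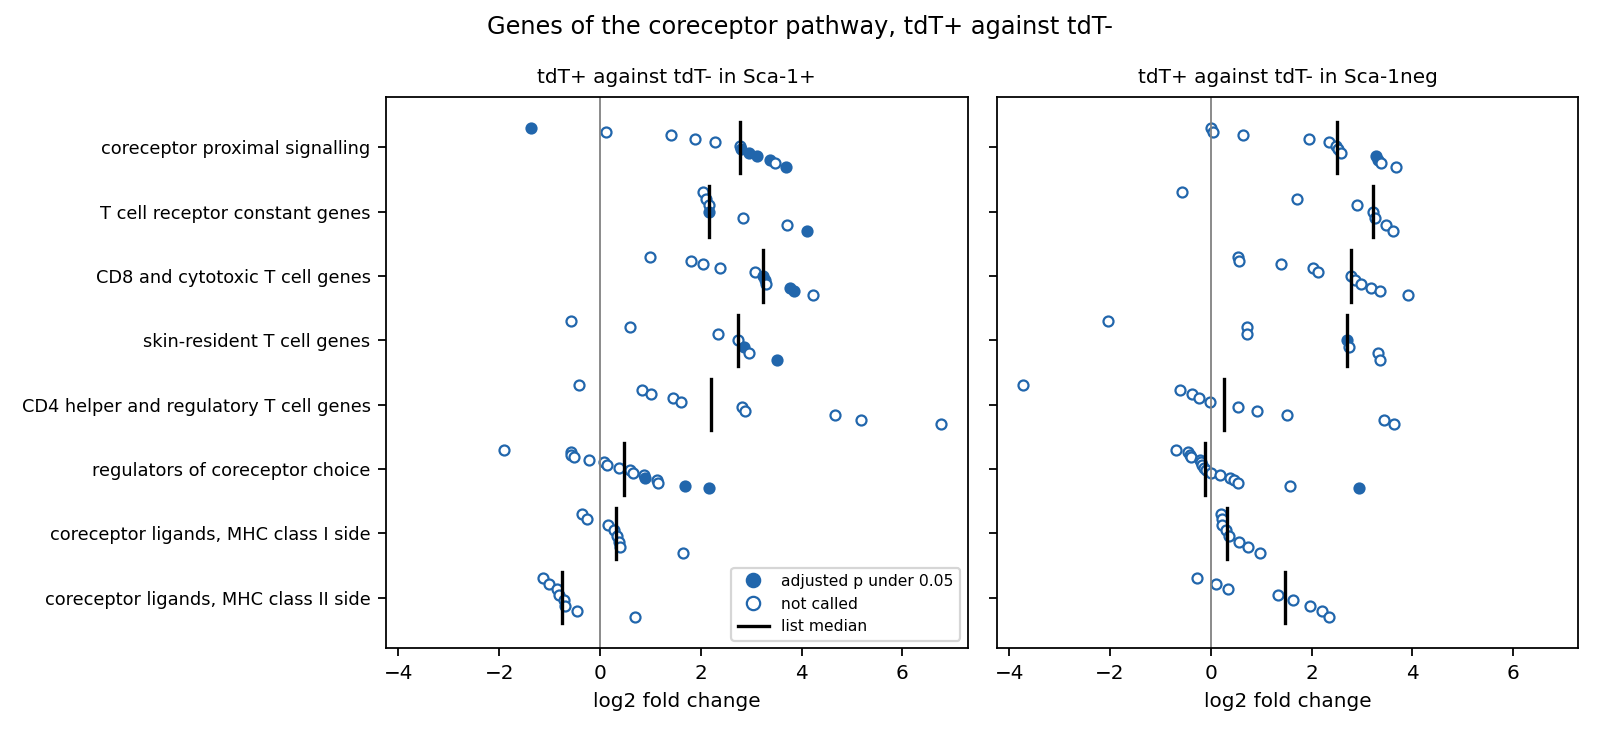
Log2 fold changes of tdT+ over tdT- cells for each tested gene of 8 lists, in the Sca-1+ fraction (left) and the Sca-1neg fraction (right); filled points have an adjusted p under 0.05 in edgeR and black lines are list medians. Medians of the signalling, receptor, cytotoxic and resident lists lie between 2.17 and 3.23 in both panels, those of the class I ligands near 0.3, and the class II median is -0.76 on the left and 1.48 on the right.

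The chromosomal neighbours of the coreceptor genes were read to see whether the change extended along the chromosome. Of 11 tested neighbours, taken as the nearest 3 protein-coding genes on each side of each gene, none was called by edgeR between labelled and unlabelled cells of either fraction. In Sca-1+ cells 2 had an unadjusted p under 0.05 and DESeq2 called 2, and in Sca-1neg cells both numbers were 0. Over all 20307 genes, unadjusted p-values under 0.05 numbered 2935 in Sca-1+ and 1691 in Sca-1neg cells, and DESeq2 called 1473 and 432 genes. P3h3, a prolyl hydroxylase gene 6.94 kb from Cd4, had the lowest adjusted p of the neighbours in Sca-1+ cells and was lower in labelled cells without overlap. It was at 10.1, 6.87 and 10.9 CPM in Sca-1+ tdT+ cells and 17.0 and 23.1 CPM in Sca-1+ tdT- cells, with a log2 difference of -1.11 ± 0.29 and an adjusted p of 0.0830 in edgeR. Rmnd5a, 9.46 kb from Cd8a, differed by 0.18 ± 0.20 (log2) in Sca-1+ cells, and Krcc1, 37.5 kb from Cd8b1, by 0.33 ± 0.28. Smyd1, which lies 0.555 kb from Cd8b1, was at no more than 1.99 CPM in any library.

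Lag3, a T cell inhibitory receptor 16.1 kb from Cd4, was at 8.66, 9.99 and 10.4 CPM in Sca-1+ tdT+ cells and 2.28 and 5.19 CPM in Sca-1+ tdT- cells. Its log2 difference was 1.38 ± 0.49, with an adjusted p of 0.207 in edgeR. Gpr162, 0.709 kb from Cd4, was at 2.57 CPM on average in Sca-1+ tdT+ and 3.87 CPM in Sca-1+ tdT- cells. Fabp1, a neighbour of Cd8b1 and a liver gene, was at 53.3 to 152 CPM in the 3 libraries with liver transcripts and at most 0.771 CPM elsewhere.

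The genes whose pattern was most like each coreceptor gene were taken by Pearson correlation of log2(CPM + 0.5) over the 11 libraries, among 13510 genes. For Cd8a they were Cd8b1 (r = 0.98), the T cell surface receptor gene Cd6 (0.98), Trac (0.96), the lymphotoxin beta gene Ltb (0.96) and Zfp683 (0.96), a factor of tissue-resident T cells. For Cd8b1 they were Cd8a (0.98), Tmem134 (0.97), Cd6 (0.96), Cblc (0.96) and Sept1 (0.96). For Cd4 they were Map2k6 (0.88), Tpi1 (0.86), Ggt6 (0.85), Ssu72 (0.84) and Map3k4 (0.84), none of which is on the T cell lists used here. Cd4 ranked 416th among the genes most like Cd8a, at r = 0.79. These values describe 4 groups more than 11 separate points, since libraries of a group share their sort.

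Markers of T cells and of other cells also differed between the groups. The sum over all 7 T cell markers was 173 to 600 CPM in Sca-1+ tdT+ cells, 42.3 to 44.3 CPM in Sca-1+ tdT- cells, 27.3 to 33.0 CPM in Sca-1neg tdT+ cells and 11.5 to 13.2 CPM in Sca-1neg tdT- cells. All 7 were higher without overlap in labelled than in unlabelled Sca-1+ cells, as were 15.8% of all tested genes. The part of the T cell markers in the levels of Cd8a and Cd8b1 was not tested. The sum over 9 Langerhans and dendritic cell markers went the other way, with 55.9 to 98.6 CPM in Sca-1+ tdT+ and 129 to 166 CPM in Sca-1+ tdT- cells. Clec9a and Xcr1 mark a class of dendritic cells, only some of which carry CD8 alpha. Clec9a was at 0 to 0.511 CPM in Sca-1+ tdT+ cells and 4.10 to 6.36 CPM in Sca-1+ tdT- cells. Xcr1 was at 0 to 2.48 CPM against 0.0838 to 0.127 CPM. Batf3, also on the list, was at 0.671 to 0.852 CPM against 0.380 to 1.09 CPM. The part of dendritic cells in the level of Cd8a was not tested. The 5 gamma-delta epidermal T cell markers summed to 160 to 214 CPM in Sca-1+ tdT+ cells and 104 to 116 CPM in Sca-1+ tdT- cells. In Sca-1neg tdT+ and tdT- cells they summed to 81.0 to 135 and 110 to 115 CPM. Sox13 of that list was lower in labelled Sca-1+ cells, at 5.32 to 11.9 CPM against 31.4 to 38.4 CPM. The part of gamma-delta T cells in the coreceptor levels was not tested.

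Macrophage and monocyte markers, 8 genes, ran from 118 to 313 CPM in Sca-1+ tdT+ cells and from 179 to 880 CPM in Sca-1+ tdT- cells. Endothelial markers, also 8, ran from 42.2 to 86.5 CPM in Sca-1+ tdT+ and from 2462 to 2737 CPM in Sca-1+ tdT- cells. Their part in the levels of Cd4, the coreceptor that some of these other cells can also make, was not tested. Of the 5 thymocyte markers, Rag2 and Ptcra were at 0 in all 3 Sca-1+ tdT+ libraries. Rag1 was at up to 0.227 CPM there and Dntt at up to 0.155 CPM. Cd1d1, the other marker of that list, was at 0.746 to 1.91 CPM in Sca-1+ tdT+ cells and 1.58 to 2.97 CPM in Sca-1+ tdT- cells. The part of thymocytes in the coreceptor levels was not tested. The B cell markers summed to at most 3.09 CPM in any library.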

How the data were processed

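RNA-seq counts per gene were deposited by the authors as 1 table per library, and they were used as deposited. Per the submitters' processing notes, the tools named are STAR, featureCounts, FastQC, DESeq2 1.18.1 and bcl2fastq 2.20.0.422, and the build is mm10. The annotation release and the handling of strand and multimapping reads are unstated in the sources used here. All 55536 Ensembl IDs matched GENCODE M21, and 145 of 147 list and marker symbols were found. The remaining row was read as the tracer and kept out of the tests. In R 4.3.3, edgeR 4.0.16 (filterByExpr, TMM, robust glmQLFit, glmQLFTest) was fitted to 4 group means in 11 libraries, with 7 residual degrees of freedom. Adjusted p-values are Benjamini-Hochberg over 20307 genes, with a threshold of 0.05. SE is the absolute log2 fold change over the square root of F. DESeq2 1.42.0 was an alternative. The fits were tested on simulated data, in which part of the genes given a true change were not called. Exact permutation tests used a pseudocount of 0.5 CPM, and intervals are Clopper-Pearson at 95%. Up to 4 genes of a list are named, those with the lowest p or, with none called, those with the most counts. One gene so chosen is not reported here. Genes compared for pattern had a mean of at least 1 CPM. The genes described and the lists were chosen with earlier results of these data known.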

Additional observations from a re-analysis of the deposited data

How the results depend on the processing

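Over 17 alternatives to the gene tests and 15 to the permutation tests, 273 of 300 values for the 3 coreceptor genes kept their direction and side of the threshold. Most of the 273 belong to results not called in the main setting, so they show that a lack of a call stayed. The only edgeR call, Cd8a between Sca-1 fractions of tdT+ cells, was lost in 11 of 17 alternatives. Between labelled and unlabelled Sca-1+ cells, DESeq2 called Cd8a (5.81) and Cd8b1 (7.03), and leaving out the 3 libraries with liver transcripts made Cd8b1 a call (6.85, adjusted p = 0.00241 in edgeR). Leaving out each library in turn gave 4.78 to 13.78 for Cd8a and 6.01 to 12.50 for Cd8b1. The highest values come without Sca-1+ tdT- replicate 1, which leaves a library at 0, so they are no bound (Cd8a was then called, at an adjusted p of 0.0184), and Cd8b1 was called without Sca-1neg tdT+ replicate 3 (6.97, adjusted p = 0.0128). Between Sca-1 fractions of tdT+ cells Cd8a was not called with no low-count filter (4.76), in the 32-week libraries alone (4.95) or without the liver libraries (3.78), and left-out libraries gave 4.40 to 5.84. Cd8b1 was called by DESeq2 (4.29), and left-out libraries gave 3.79 to 6.83, with a call without Sca-1neg tdT+ replicate 3. Between Sca-1 fractions of tdT- cells the 32-week libraries alone turned Cd4 to -1.89, Cd8a to -5.85 and Cd8b1 to -4.72, and left-out libraries gave -1.62 to 1.31, -6.00 to 3.02 and -4.89 to 1.62. The negative values for Cd8a and Cd8b1 rest on 1 Sca-1+ tdT- library with 0 counts against levels near its 3-count limit, so their size has no meaning, and those for Cd4 rest on 3 counts. Between labelled and unlabelled Sca-1neg cells left-out libraries gave 1.95 to 3.40 for Cd8a, 0.80 to 3.84 for Cd8b1 and 0.60 to 1.61 for Cd4. The combined difference of Cd4 ran from 0.77 to 1.38 as libraries were left out. Where a left-out library leaves 1 in a group, its spread is taken from the other groups.

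Whether replicate numbers pair the libraries was not settled. Over 15 same-numbered pairs the correlation of deviations from group means ran from -0.51 to 0.71, and 8 were over 0.1. Pairs with different numbers ran from -0.71 to 0.61, and most of them were under 0.1. The extremes of both kinds were between Sca-1neg libraries, some of which held liver transcripts. With the replicate number as a block, Cd8a between Sca-1 fractions of tdT+ cells was 5.17 (adjusted p = 0.0643 in edgeR), Cd8b1 was called there at 5.25 (adjusted p = 0.0376), and Cd4 between fractions of tdT- cells turned to -0.043.

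Counts of all genes called moved more. For tdT in Sca-1neg cells, 13 genes became 432 with DESeq2, 81 with no filter, 0 in the 32-week libraries and 38 without liver libraries (0 to 14 with a library left out). For tdT in Sca-1+ cells, 556 became 1473 with DESeq2, 64 in the 32-week libraries and 1286 without liver libraries (145 to 791). For Sca-1 in tdT- cells, 1166 became 2880, 9 and 2073 in that order (116 to 1665). For Sca-1 in tdT+ cells, 2572 became 4773 with DESeq2 and 345 in the 32-week libraries (1591 to 3040). For the difference of tdT effects, 98 became 854 with DESeq2, 156 with DESeq2 size factors, 234 with no filter, 0 in the 32-week libraries and 220 without liver libraries (26 to 347). The cause of these shifts was not tested. Counts of 0 to 69 limit Cd4, Cd8a and Cd8b1 in the tdT- groups.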
